A study of Mus musculus with 15 samples.

Results

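Genes of the endoplasmic reticulum (ER) chaperone machinery and of the unfolded protein response were followed in the livers of newborn mice. The set holds 35 genes, taken by name from the array's annotation, of 27554 genes and single transcripts measured. All 35 had at least 1 probe, 48 in all, and the brightest probe on average stood for each gene. All 35 were well above background on all 15 arrays, so none dropped out at the filter on dim probes. By role the set held 4 stress sensors and transcription factors, 11 HSP70 and HSP90 chaperones with their co-chaperones and regulators, 2 lectin chaperones, 7 isomerases and oxidases, 9 genes of ER-associated degradation and 2 genes of the translocon.

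The ER folds secreted and membrane proteins, and the hepatocyte, which exports most plasma proteins, carries a large load of them. When unfolded proteins accumulate, the sensors IRE1, PERK and ATF6 raise transcription of chaperones, isomerases and degradation genes and slow protein synthesis. IRE1 does this by splicing the Xbp1 mRNA, ATF6 by releasing a transcription factor, and PERK by phosphorylating the initiation factor eIF2alpha, which favours translation of ATF4.

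All pups were C57BL/6J, 1 day old, and each gave 1 liver and 1 Agilent single-colour array. Wild-type pups (n = 5) were littermates of pups that had inherited from their mother a loss of the imprinted miR-379/miR-410 microRNA cluster (KO, n = 10 in 2 groups). The KO pups were divided by blood glucose. The wild-type pups had 58.6 ± 9.56 mg/dl (SD, n = 5). The group titled normoglycaemic KO had 48.0 ± 6.93 mg/dl (SD, n = 3), and the group titled hypoglycaemic KO 19.9 ± 9.34 mg/dl (SD, n = 7). The series' design text describes these KO groups as mildly and severely hypoglycaemic. Both comparisons of a KO group with wild type share the same 5 wild-type libraries, and the KO groups differ in glucose because they were formed by it. The labels name no tissue-specific Cre, and the bounds of the deletion were not used here. Livers are numbered below by their replicate.

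Levels are the log2 processed signal minus the log2 75th percentile of the array, so a level of 0 is that percentile. A difference is that of 2 group means on this log2 scale, with its standard error. Levels of different genes come from different probes and were not set against each other. The 75th percentile ran from 663 to 912 across arrays, and 57.9% to 76.2% of spots were well above background. A library titled hypoglycaemic KO replicate 2 read 0.89 for Mirg, the host transcript of the deleted cluster, against −2.78 to −0.99 in the other 6 of its group and 1.12 to 1.84 in wild type, so it is called the library labelled hypoglycaemic KO replicate 2. Hepatocyte markers (10 of 10 well above background on all arrays) had a mean level of 8.92 to 9.26 in every library. Pancreatic acinar markers (13 of 19 measured well above background on all arrays) had mean levels of −2.95 to 1.94 among wild-type libraries, −2.90 to 4.83 among normoglycaemic KO and −3.22 to 2.20 among hypoglycaemic KO libraries. They were highest in normoglycaemic KO replicate 2, hypoglycaemic KO replicate 3 and wild-type replicate 2. Acinar cells are rich in ER, and their part in the results was not tested, but the counts led with are also given without these 3 libraries. In whole liver, fewer cells of a type and less RNA per cell cannot be told apart.

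Promoters of the set were examined for the sequences through which the unfolded protein response acts, because members with such a site could be set beside members without one. RefSeq promoters (GRCm38.p6, from 250 bases before the start site to 50 after it) were at hand for 29 of the 35 members. The ER stress response element (ERSE) is CCAAT and CCACG 9 bases apart, and ERSE-II is ATTGG and CCACG 1 base apart; both were searched on both strands. ERSE was found in 10 of the 29 members (34.5%) against 37 of all 27025 promoters (0.137%), and ERSE-II in 2 (6.9%) against 12 (0.0444%). The element TGACGTGG, bound by XBP1 and ATF6, was found in 0 of the 29 members and in 193 of all promoters (0.714%). A match is a description of these letters and does not show binding. The stretches below, from 7 members described in the results, are written 5′ to 3′ on the strand of the gene, with the pairs of conserved boxes in capitals. A pair that reads CGTGG and then ATTGG is ERSE on the opposite strand.
Hspa5, chr2:34772013-34772055, plus strand: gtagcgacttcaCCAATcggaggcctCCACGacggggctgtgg
Hsp90b1, chr10:86705521-86705668, minus strand: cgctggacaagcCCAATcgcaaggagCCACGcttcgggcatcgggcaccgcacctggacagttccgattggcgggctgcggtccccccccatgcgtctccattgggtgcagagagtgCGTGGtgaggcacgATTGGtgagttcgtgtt
Creld2, chr15:88819508-88819550, plus strand: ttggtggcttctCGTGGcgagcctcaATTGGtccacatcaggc
Calr, chr8:84847063-84847105, minus strand: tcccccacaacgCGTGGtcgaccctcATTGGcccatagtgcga
Pdia6, chr12:17266479-17266521, plus strand: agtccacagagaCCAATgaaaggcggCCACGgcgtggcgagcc
Derl3, chr10:75893230-75893272, plus strand: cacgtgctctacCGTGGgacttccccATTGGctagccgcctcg
Herpud1, chr8:94386365-94386399, plus strand: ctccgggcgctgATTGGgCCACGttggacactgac
The other members with ERSE were Canx, Dnajc3, Ero1lb and Syvn1, and Dnajb11 held ERSE-II at 8 to 18 bases after its start site. The ERSE of Hspa5 lay at −65 to −47 and the ERSE-II of Herpud1 at −52 to −42 from the start site. Hsp90b1 held 2, at −212 to −194 and −107 to −89, facing opposite ways.

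**Figure D1:**
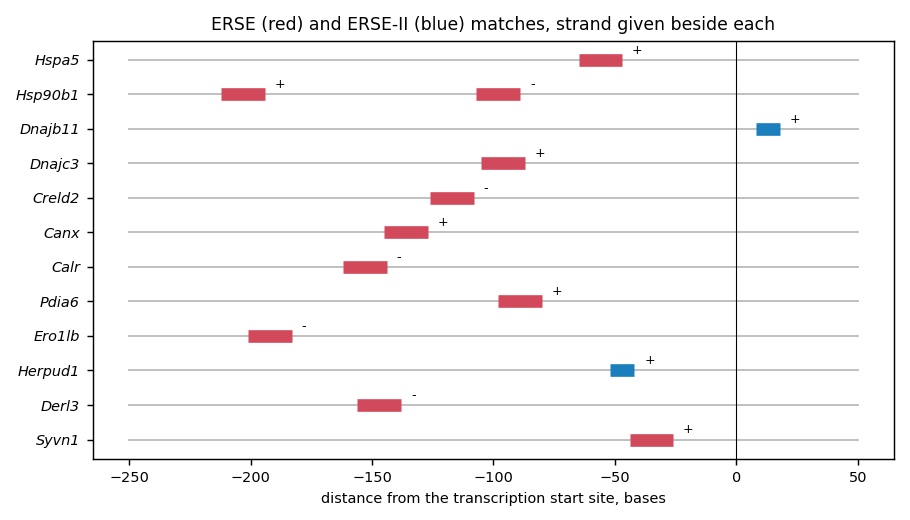
Positions of ERSE (red) and ERSE-II (blue) in the promoters of the 12 members that hold one, in bases from the transcription start site (x axis, 0 is the start), with + or − for the strand of the match relative to the gene. Of the 13 matches, 12 lie before the start site; the ERSE-II of Dnajb11 lies after it.

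In hypoglycaemic KO livers most of the set lay a little below wild type, with 27 of 35 differences below 0 and 8 above. Of the 35 members, 10 were lower at an unadjusted limma p under 0.05 (against 8.91% of all genes) and 3 were higher (against 9.92%), 13 in all against a background of 18.8%. None passed after Benjamini-Hochberg adjustment over all genes, at which 0.0181% of all genes passed, and the smallest adjusted p of a member was 0.0872, so no member is described as risen or fallen. The median difference was −0.17 against 0.02 over all genes. The lower members were Sel1l, Xbp1, Edem1, Pdia4, P4hb, Dnajc3, Pdia3, Ppib, Ero1lb and Sec61b, and the higher ones Herpud1, Atf6 and Eif2ak3. For Xbp1 alone all 7 hypoglycaemic KO livers lay below all 5 wild-type livers (0.721% of all genes), and for 0 members all lay above (0.759%). Without the library labelled hypoglycaemic KO replicate 2 the counts were 7 lower and 2 higher (18.5% of all genes passed), and without the 3 libraries rich in acinar transcripts 6 and 2 (12.0%). The count of 13 was 8 without wild-type replicate 4, hypoglycaemic KO replicate 1 or hypoglycaemic KO replicate 5 (16.5%, 15% and 15.5% of all genes passed). Within slide 1 of the 2 array slides (2 wild-type and 4 hypoglycaemic KO libraries) 4 members were lower and 0 higher (5.36% of all genes passed), and within slide 2 (3 and 3) 5 were lower and 3 higher (12.1%), while the medians were −0.18 and −0.14.

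In normoglycaemic KO livers, which carry the same deletion, 28 of 35 differences from wild type were below 0, with a median of −0.13 against 0.01 over all genes. Hsp90b1, Pdia6 and Sil1 were lower at an unadjusted p under 0.05 (1.66% of all genes were), and 0 members were higher (3.15%), 3 in all against a background of 4.82%. No gene of the array, and so no member, passed after adjustment (smallest adjusted p of a member 0.963). For 7 members (Dnajc3, Pdia3, Calr, Pdia6, Sil1, Manf and Syvn1) all 3 normoglycaemic KO livers lay below all 5 wild-type livers, against 1.5% of all genes, and for 0 members all lay above (2.41%). The count of 3 was 6 without the library labelled hypoglycaemic KO replicate 2 (4.85% of all genes passed). That library enters this comparison through the common estimate of the spread. The count was also 6 without wild-type replicate 2 (7.46%), 8 without hypoglycaemic KO replicate 7 (5.35%), and 1 without normoglycaemic KO replicate 2 or 3 (2.56% and 6.44%). It was 2 without wild-type replicate 3 or 4 or normoglycaemic KO replicate 1 (3.87%, 3.31% and 3.88%). It was also 2 without hypoglycaemic KO replicate 1, 3 or 6 (4.46%, 4.89% and 4.63%). It was 2 without the 3 acinar-rich libraries (3.67% of all genes passed), 0 within slide 1 (2.98%) and 2 within slide 2 (3.42%). All 3 pairs of wild-type and normoglycaemic KO livers with the same number deviated together from their group means (r of 0.12 to 0.32 over genes). Each of these pairs also shared an array slide, so number and slide cannot be told apart here. With the number as a block 6 members were lower (2.94% of all genes were): Hsp90b1, Pdia6 and Sil1 again, with Calr, Manf and Sdf2l1. With slide as a block 2 members were lower (1.59% of all genes were).

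Between the KO groups, which the labels give the same deletion (Mirg leaves it in doubt for 1 library) and which were formed by glucose, 3 members were lower in hypoglycaemic livers (Sel1l, P4hb and Xbp1; 10.1% of all genes were) and 2 were higher (Herpud1 and Eif2ak3; 9.35%). These 5 of 35 are a smaller share than the 19.4% of all genes, and the median difference was 0.02 against −0.01 over all genes. None of the 5 overlapped between the groups (3 lower, against 3.99% of all genes, and 2 higher, against 4.92%). Sel1l had the smallest adjusted p (0.0641), above the threshold that 0.0544% of all genes passed. Without the library labelled hypoglycaemic KO replicate 2, 9 members passed the unadjusted threshold, 3 lower and 6 higher (19.3% of all genes passed). Without the 3 acinar-rich libraries 5 did (10.7% of all genes).

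**Figure D2:**
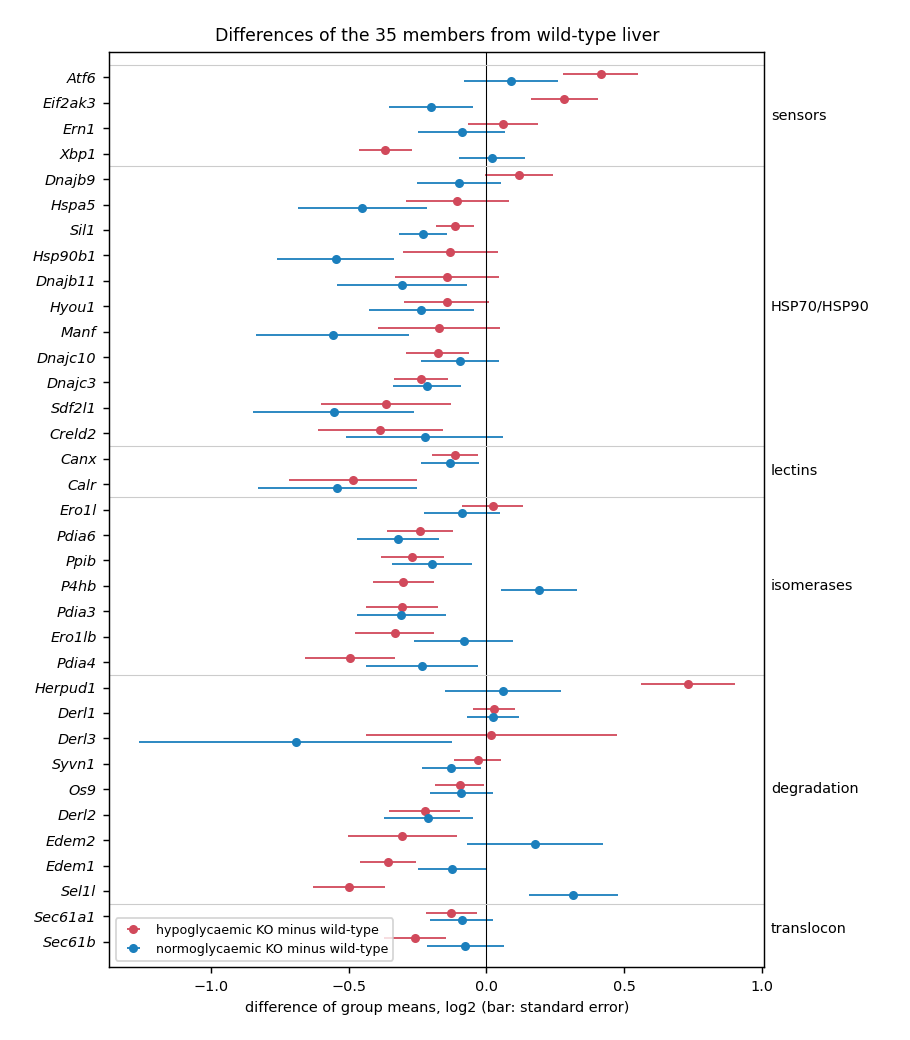
Difference of each KO group from wild type for the 35 members (x axis, log2; bars are standard errors from limma), grouped by role and ordered within a role by the hypoglycaemic KO difference (red; blue is normoglycaemic KO). Most points lie left of 0 in both comparisons; Herpud1 (0.73) lies farthest to the right, and Sel1l has the lowest red point (−0.50) and the highest blue point (0.32).

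The stress sensors did not move together. Xbp1, the transcription factor activated by IRE1 (probe at chromosome 11, 5425816 to 5425875, mm9), read 5.88, 6.14, 5.75, 5.76 and 5.94 in wild-type livers 1 to 5 and 5.92, 6.07 and 5.75 in normoglycaemic KO livers 1 to 3. In hypoglycaemic KO livers its lowest, median and highest levels were 5.32, 5.52 and 5.75. Every hypoglycaemic KO liver was below every liver of both other groups, though the highest of them was close to the lowest of the others. The difference from wild type was −0.37 ± 0.10 (SE; unadjusted p = 0.00193, adjusted p = 0.0995), and from normoglycaemic KO −0.39 ± 0.11 (unadjusted p = 0.00431, adjusted p = 0.114). Within slides 1 and 2 the difference from wild type was −0.48 and −0.29, and that from normoglycaemic KO was −0.47 and −0.22. The array read total Xbp1 transcript, and its splicing was not measured.

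Atf6 encodes the sensor that is itself cleaved into a transcription factor. It read −0.51, −0.93, −0.71, −0.98 and −0.74 in wild-type livers 1 to 5 and −0.61, −0.73 and −0.72 in normoglycaemic KO livers 1 to 3. The hypoglycaemic KO levels ran from −0.74 through a median of −0.34 to −0.01. All 7 were above the wild-type mean, yet replicates 4 and 6, at −0.73 and −0.74, lay within the wild-type range, so the groups overlapped. Against wild type the difference was 0.41 ± 0.14 (SE; unadjusted p = 0.00883, adjusted p = 0.139), and 0.34 without the 3 acinar-rich libraries, which did not pass (unadjusted p = 0.0558).

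Eif2ak3 encodes PERK, the kinase that slows translation. Its levels were 1.05, 1.24, 1.23, 0.69 and 0.86 in wild-type livers 1 to 5, 0.89, 0.72 and 0.83 in normoglycaemic KO livers 1 to 3, and 1.02, 1.34 and 1.56 as lowest, median and highest of the hypoglycaemic KO group. All 7 hypoglycaemic livers were above all 3 normoglycaemic KO livers but overlapped with wild type. The difference from normoglycaemic KO was 0.48 ± 0.14 (SE; unadjusted p = 0.0048, adjusted p = 0.117). Against wild type it was 0.28 ± 0.12 (unadjusted p = 0.0365, adjusted p = 0.23), but 0.02 within slide 1 and 0.55 within slide 2, and without the library labelled hypoglycaemic KO replicate 2 its p was 0.0553. Ern1, which encodes IRE1alpha, read −0.54, −0.64, 0.01, −0.07 and −0.08 in wild-type, −0.44, −0.32 and −0.30 in normoglycaemic KO and −0.56, −0.14 and −0.02 (lowest, median, highest) in hypoglycaemic KO livers. All 3 normoglycaemic KO livers lay inside the range of both other groups, which overlapped, and the differences from wild type were 0.06 ± 0.13 and −0.09 ± 0.16 (SE) for hypoglycaemic and normoglycaemic KO. The 3 further Ern1 probes were above 0 in both comparisons (0.06 to 0.38 and 0.08 to 0.31), and none passed. They were dim, with mean levels of −3.17, −4.25 and −4.65, and were well above background on 15, 11 and 9 arrays.

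**Figure D3:**
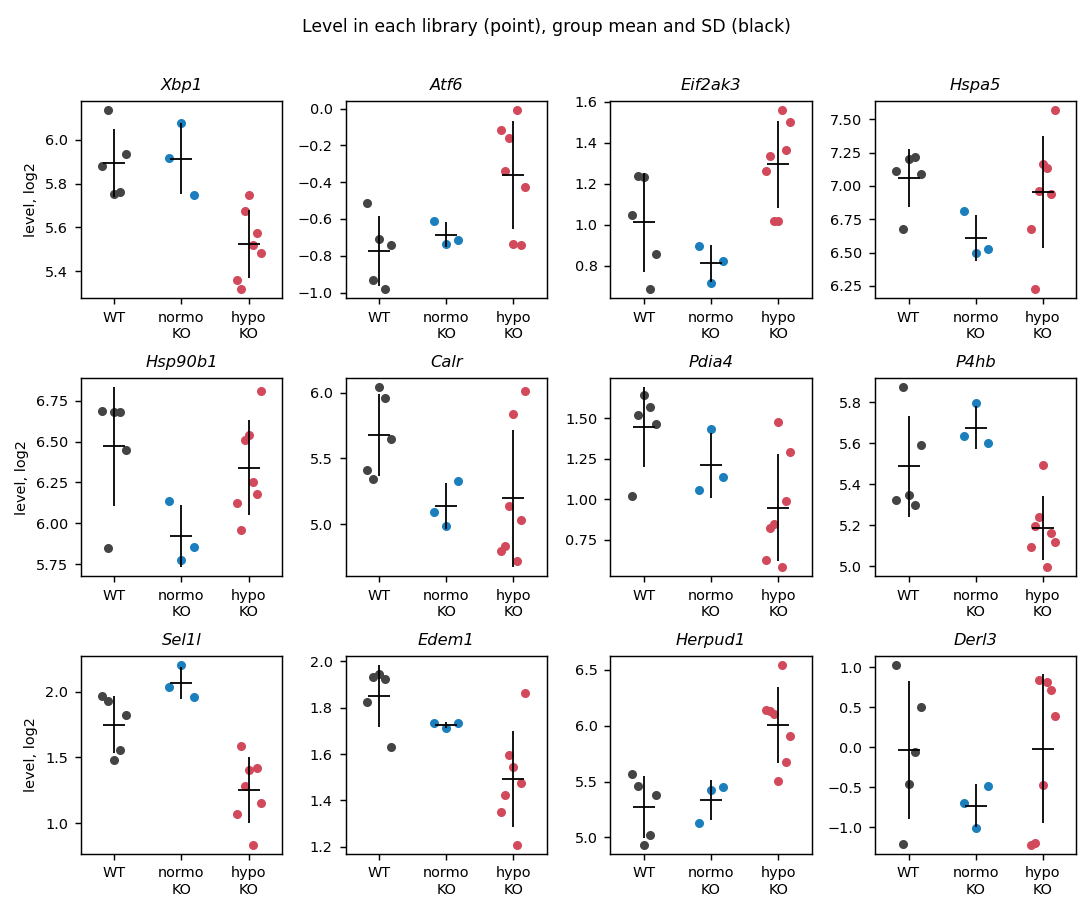
Level of 12 members in each library (points; log2 over the array's 75th percentile), with the group mean and SD in black, for wild-type (WT, n = 5), normoglycaemic KO (normo, n = 3) and hypoglycaemic KO (hypo, n = 7) livers. The hypoglycaemic points of Xbp1 all lie below the wild-type points. Those of Sel1l and P4hb lie below all normoglycaemic points, and those of Herpud1 above them. Hspa5 and Calr spread more widely in the hypoglycaemic than in the wild-type group, and Hsp90b1 does not.

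Among the chaperones of the HSP70 and HSP90 families, differences from wild type were below 0 for all 11 in normoglycaemic KO livers (median −0.24). In hypoglycaemic KO livers they were below 0 for 10 of 11 (median −0.14). At the unadjusted threshold 2 were lower in normoglycaemic KO (1.66% of all genes were) and 1 in hypoglycaemic KO livers (8.91% of all genes were). Hspa5 encodes BiP, the HSP70 of the ER that also holds the sensors inactive (probe at chromosome 2, 34631913 to 34631972, mm9). It read 7.11, 6.68, 7.21, 7.22 and 7.09 in wild-type livers 1 to 5 and 6.81, 6.49 and 6.52 in normoglycaemic KO livers 1 to 3. Hypoglycaemic KO livers ran from 6.22 in the library labelled replicate 2, with a median of 6.96, to 7.57 in replicate 7. The normoglycaemic KO livers lay at the low end, and the hypoglycaemic KO livers spread on both sides of the wild-type values. The difference was −0.45 ± 0.23 (SE; unadjusted p = 0.0739) in normoglycaemic KO and −0.11 ± 0.19 (unadjusted p = 0.58) in hypoglycaemic KO livers, where it was 0.02 without the library labelled replicate 2.

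Hsp90b1 encodes GRP94, the HSP90 of the ER. Its levels were 6.69, 5.85, 6.68, 6.68 and 6.45 in wild-type livers 1 to 5 and 6.14, 5.77 and 5.86 in normoglycaemic KO livers 1 to 3, and 5.96, 6.25 and 6.81 (lowest, median, highest) in hypoglycaemic KO livers. Wild-type replicate 2 lay among the normoglycaemic KO values, and the other 4 wild-type livers lay above them. The difference was −0.55 ± 0.21 (SE; unadjusted p = 0.0226, adjusted p = 0.963) in normoglycaemic KO livers, −0.31 within slide 1 and −0.75 within slide 2, and −0.13 ± 0.17 in hypoglycaemic KO livers. Sil1, the nucleotide exchange factor of BiP, read 4.59, 4.69, 4.57, 4.53 and 4.65 in wild-type and 4.38, 4.26 and 4.49 in normoglycaemic KO livers, with no overlap. The hypoglycaemic KO values, 4.39 to 4.68 with a median of 4.46, overlapped with both. Its normoglycaemic KO difference was −0.23 ± 0.09 (SE; unadjusted p = 0.0197, adjusted p = 0.963), but −0.15 without the 3 acinar-rich libraries and −0.09 within slide 2.

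Manf, Creld2 and Sdf2l1 had a wider spread in hypoglycaemic KO than in the other livers. Manf, a secreted factor that binds BiP, was 2.99 ± 0.18 (SD, n = 3) in normoglycaemic KO against 3.55 ± 0.22 (SD, n = 5) in wild-type livers and 3.37 ± 0.53 (SD, n = 7) in hypoglycaemic KO livers. Creld2, an ER-resident protein induced by ER stress, was 4.63 ± 0.17 in wild type, 4.41 ± 0.09 in normoglycaemic KO and 4.25 ± 0.56 in hypoglycaemic KO livers (SD). Sdf2l1, which works with BiP and its J proteins, was 1.52 ± 0.30, 0.96 ± 0.10 and 1.15 ± 0.54 in the same order. Dnajc3, a J-domain partner of BiP that also restrains PERK, was lower in hypoglycaemic KO livers (−0.24 ± 0.10 SE; unadjusted p = 0.03, adjusted p = 0.211). The remaining members, the J proteins Dnajb9, Dnajb11 and Dnajc10 and the large HSP70-like Hyou1, differed from wild type by −0.18 to 0.12 in hypoglycaemic and by −0.31 to −0.10 in normoglycaemic KO livers, and none passed.

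Both lectin chaperones, which hold glycoproteins through their sugar, were below wild type in both KO groups without passing the unadjusted threshold. Calr (calreticulin) read 5.41, 5.34, 6.04, 5.96 and 5.64 in wild-type livers 1 to 5 and 5.09, 4.99 and 5.33 in normoglycaemic KO livers 1 to 3. The 7 hypoglycaemic KO livers read 4.79, 4.83, 5.13, 5.84, 4.72, 5.03 and 6.01 in replicates 1 to 7. All normoglycaemic KO livers were below all wild-type livers, whereas of the hypoglycaemic KO livers 5 were below all wild-type values and 2 within their range. The differences were −0.54 ± 0.29 (SE; unadjusted p = 0.082) and −0.48 ± 0.23 (unadjusted p = 0.056). Canx, the membrane-bound calnexin, differed by −0.13 ± 0.11 and −0.11 ± 0.08 (SE).

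Of the 7 isomerases and oxidases, 5 were lower at the unadjusted threshold in hypoglycaemic KO livers (8.91% of all genes were), with a median difference of −0.30. In normoglycaemic KO livers 1 was (1.66% of all genes), with a median of −0.20. Pdia4, a protein disulfide isomerase, read 1.02, 1.52, 1.65, 1.57 and 1.47 in wild-type livers 1 to 5 and 1.06, 1.44 and 1.14 in normoglycaemic KO livers 1 to 3. Among the hypoglycaemic animals it read 0.63, 0.83, 0.85, 1.48, 0.58, 0.99 and 1.29 in replicates 1 to 7. Replicates 4 and 7 were in the wild-type range, and wild-type replicate 1 was far below the other 4. The difference was −0.49 ± 0.16 (SE; unadjusted p = 0.00871, adjusted p = 0.139), −0.32 within slide 1 and −0.61 within slide 2.

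P4hb, the classical disulfide isomerase PDI, parted the KO groups. It read 5.33, 5.87, 5.35, 5.30 and 5.59 in wild-type livers 1 to 5, 5.63, 5.80 and 5.60 in normoglycaemic KO livers 1 to 3, and 5.00, 5.16 and 5.50 (lowest, median, highest) in hypoglycaemic KO livers. All 7 hypoglycaemic were below all 3 normoglycaemic KO livers, by 0.49 ± 0.13 on average (SE; difference −0.49, unadjusted p = 0.00208, adjusted p = 0.0968), and −0.46 and −0.51 within slides 1 and 2. Against wild type the hypoglycaemic difference was −0.30 ± 0.11 (unadjusted p = 0.0163, adjusted p = 0.169). It was −0.21 without the 3 acinar-rich libraries, which did not pass (unadjusted p = 0.06).

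Pdia6, a further disulfide isomerase, read 5.95, 6.20, 6.37, 6.19 and 6.00 in wild-type and 5.76, 5.93 and 5.78 in normoglycaemic KO livers, which did not overlap. Hypoglycaemic KO livers ran from 5.59 through 5.85 to 6.28. Its normoglycaemic KO difference was −0.32 ± 0.15 (SE; unadjusted p = 0.0485, adjusted p = 0.963), and a second probe gave −0.39 (unadjusted p = 0.0369). In hypoglycaemic KO livers the probes gave −0.24 (unadjusted p = 0.0646) and −0.29 (unadjusted p = 0.0489). Pdia3, which folds glycoproteins with calreticulin, and the proline isomerase Ppib differed from wild type by −0.31 ± 0.13 and −0.27 ± 0.12 (SE) in hypoglycaemic KO livers (unadjusted p = 0.0328 and 0.0356, adjusted p = 0.22 and 0.228).

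The ER oxidases, which recharge the disulfide isomerases, are encoded by a pair of genes. Ero1l, the oxidase also induced by hypoxia and now named Ero1a, read −0.89, −1.10, −1.02, −1.01 and −1.01 in wild-type, −0.95, −1.32 and −1.02 in normoglycaemic KO and −1.23, −1.10 and −0.68 (lowest, median, highest) in hypoglycaemic KO livers. Its groups overlapped, with differences of 0.02 ± 0.11 and −0.09 ± 0.14 (SE) for hypoglycaemic and normoglycaemic KO. Ero1lb, the oxidase prominent in pancreas and now named Ero1b, read −0.15, 0.64, 0.05, −0.31 and −0.05 in wild-type and −0.25, 0.19 and −0.08 in normoglycaemic KO livers. In hypoglycaemic KO livers it ran from −0.46 through −0.30 to −0.09. Wild-type replicate 2 and normoglycaemic KO replicate 2, both rich in acinar transcripts, were its highest libraries. Hypoglycaemic KO replicate 3, also rich in them, read −0.09, the highest of its group but inside the range of both other groups. The part of acinar transcripts was not tested. The hypoglycaemic difference of −0.33 ± 0.14 (SE; unadjusted p = 0.0364, adjusted p = 0.23) was −0.22 without the 3 acinar-rich libraries and −0.18 without wild-type replicate 2.

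ER-associated degradation held the largest differences of the set, in opposite directions. Sel1l, the adaptor of the HRD1 ubiquitin ligase (probe at chromosome 12, 93044963 to 93045022, mm9), read 1.96, 1.93, 1.48, 1.56 and 1.82 in wild-type livers 1 to 5 and 2.03, 2.20 and 1.96 in normoglycaemic KO livers 1 to 3. In hypoglycaemic KO livers 1 to 7 it read 1.07, 1.59, 1.28, 1.40, 0.84, 1.42 and 1.16. The hypoglycaemic livers lay below all normoglycaemic KO livers and below the wild-type mean. Only the library labelled hypoglycaemic KO replicate 2 (1.59) overlapped with wild type, lying above wild-type livers 3 and 4. The difference from normoglycaemic KO was −0.81 ± 0.15 (SE; unadjusted p = 0.000113, adjusted p = 0.0641), −0.78 and −0.82 within slides 1 and 2. The difference from wild type was −0.50 ± 0.13 (unadjusted p = 0.00184, adjusted p = 0.0988), a 1.41-fold difference.

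Herpud1, an ER membrane protein that joins the same ligase complex (probe at chromosome 8, 96919117 to 96919176, mm9), lay the other way. It read 5.57, 5.46, 4.94, 5.02 and 5.38 in wild-type livers 1 to 5 and 5.13, 5.42 and 5.45 in normoglycaemic KO livers 1 to 3. In hypoglycaemic KO livers 1 to 7 it read 6.14, 6.14, 6.11, 5.51, 6.54, 5.68 and 5.91. Replicate 4 was below the highest wild-type liver, and the other 6 were above all livers of both other groups. The difference was 0.73 ± 0.17 (SE; 1.66-fold, unadjusted p = 0.000714, adjusted p = 0.0872) from wild type, 0.46 within slide 1 and 0.93 within slide 2. From normoglycaemic KO it was 0.67 ± 0.20 (unadjusted p = 0.00464, adjusted p = 0.117). The promoter printed above for Herpud1 is the one with ERSE-II before its start site.

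Edem1, which hands misfolded glycoproteins to degradation, read 1.82, 1.93, 1.94, 1.92 and 1.63 in wild-type, 1.74, 1.71 and 1.73 in normoglycaemic KO and 1.21, 1.48 and 1.86 (lowest, median, highest) in hypoglycaemic KO livers. Of the hypoglycaemic livers 6 lay below the lowest wild-type liver and replicate 7 lay among them, with a difference of −0.36 ± 0.10 (SE; unadjusted p = 0.00323, adjusted p = 0.111). Its relative Edem2 read −1.93, −0.56, −1.34, −1.36 and −1.36 in wild-type, −1.52, −0.77 and −1.11 in normoglycaemic KO and −2.03, −1.64 and −1.36 in hypoglycaemic KO livers, with differences of −0.31 ± 0.20 and 0.18 ± 0.25 (SE) that did not pass. The highest Edem2 levels were those of wild-type replicate 2 and normoglycaemic KO replicate 2, and the lowest was that of hypoglycaemic KO replicate 3, all 3 rich in acinar transcripts.

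Derl3, a derlin of the retrotranslocation channel, had the largest SD of the members in wild-type (0.86) and in hypoglycaemic KO livers (0.93). It read 1.03, −1.20, −0.46, −0.05 and 0.51 in wild-type livers 1 to 5, −0.69, −1.01 and −0.48 in normoglycaemic KO livers 1 to 3, and −1.22, −1.20, 0.84, −0.47, 0.81, 0.72 and 0.39 in hypoglycaemic KO livers 1 to 7. Its high and low libraries occurred in both of these groups, and the hypoglycaemic difference was 0.02 ± 0.46 (SE). Derl1, Derl2, the lectin Os9 and the ligase gene Syvn1 differed from wild type by −0.22 to 0.03 in hypoglycaemic and −0.21 to 0.02 in normoglycaemic KO livers, and none passed. A second Derl1 probe differed in sign in the hypoglycaemic comparison (−0.12), and of the 2 further Derl2 probes 1 passed there (−0.16, unadjusted p = 0.0429) and had the opposite sign in normoglycaemic KO livers (0.09). A probe annotated D530017H19Rik was joined to Syvn1 as a synonym, but lies on the minus strand (chromosome 19, 6045128 to 6045187, mm9), while the main Syvn1 probe lies on the plus strand. It differed by −0.49 and −0.58 in the same comparisons (unadjusted p = 0.0134 and 0.0179), and whether it reads Syvn1 was not tested.

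The translocon carries nascent chains into the ER. Sec61b, its beta subunit, read 5.54, 6.17, 5.76, 5.78 and 5.78 in wild-type livers 1 to 5, 5.62, 5.77 and 5.79 in normoglycaemic KO livers 1 to 3, and 5.31, 5.52 and 5.79 (lowest, median, highest) in hypoglycaemic KO livers. All 7 hypoglycaemic livers were below the wild-type mean, which wild-type replicate 2 raised. The difference of −0.26 ± 0.11 (SE; unadjusted p = 0.0373, adjusted p = 0.233) was −0.14 without the 3 acinar-rich libraries and −0.17 without wild-type replicate 2. The 2 further Sec61b probes gave −0.30 and −0.41. Sec61a1, the channel itself, differed by −0.13 ± 0.09 and −0.09 ± 0.12 (SE) in hypoglycaemic and normoglycaemic KO livers.

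**Figure D4:**
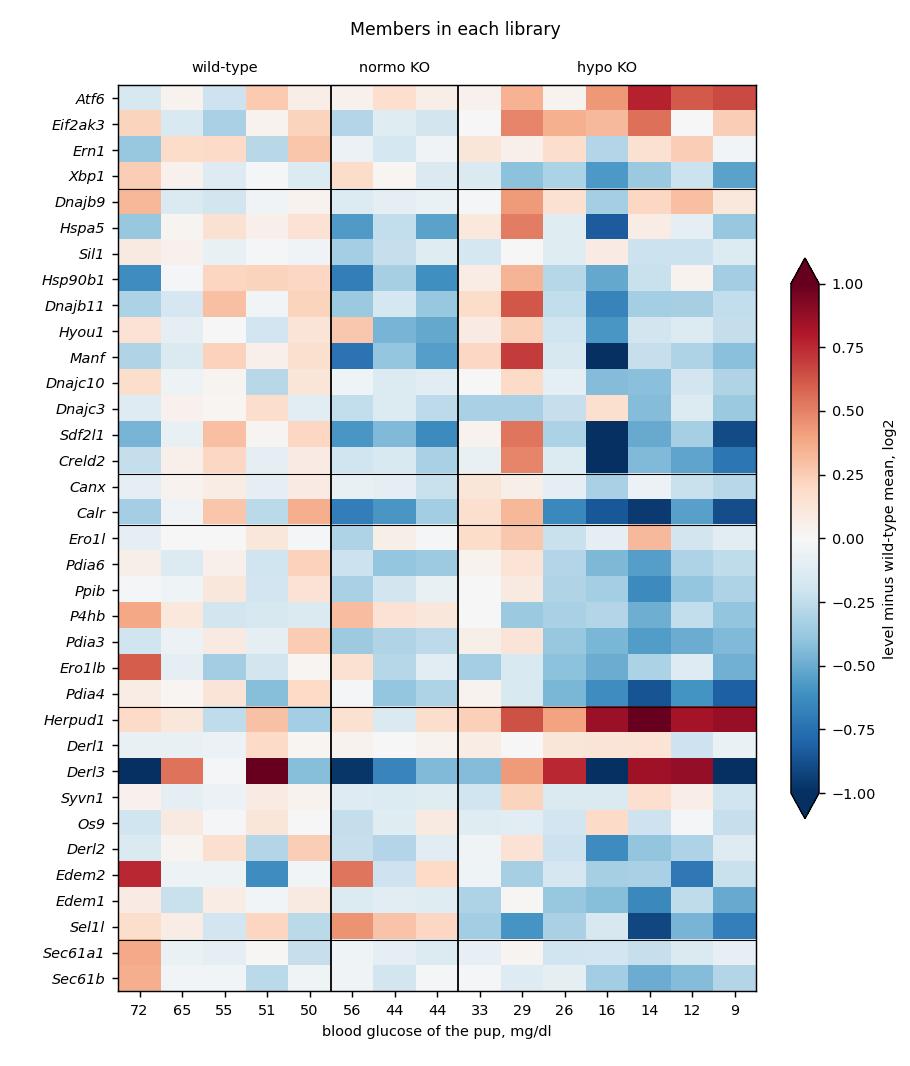
Level of each member minus its wild-type mean (log2; red higher, blue lower, colours end at −1 and 1) in each of the 15 libraries, with members grouped by role and libraries by group and, within a group, by falling blood glucose (x axis, mg/dl). Calr, Creld2, Pdia4 and Sdf2l1 are bluer in the hypoglycaemic pups below 29 mg/dl than in those of 33 and 29 mg/dl; Herpud1 is red in all 7, and Atf6 is near white in the pups of 33 and 26 mg/dl.

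Blood glucose was then used within groups, since a slope pooled over groups would repeat the group differences. With 1 common slope beside the 3 group means, 8 members had a positive slope at an unadjusted p under 0.05 (8.42% of all genes did) and 1 a negative one (9.67%), 9 against a background of 18.1%. None passed after adjustment, and 0 of all genes did. The median slope was 0.08 per 10 mg/dl against −0.01 over all genes, but 0.02 without hypoglycaemic KO replicate 7 and 0.12 without the 3 acinar-rich libraries. Acinar markers had a median slope of 0.53, with 17 of 19 above 0 and none past the threshold, and endothelial markers a median of −0.08, with 9 of 10 below 0 and 4 past the unadjusted threshold. Their part was not tested. The steepest by p were Sec61b (0.17 ± 0.04 per 10 mg/dl, SE; unadjusted p = 0.0013, adjusted p = 0.0771), P4hb (0.16 ± 0.04; unadjusted p = 0.00364, adjusted p = 0.0999), Pdia4 (0.22 ± 0.07; unadjusted p = 0.00492, adjusted p = 0.11), Edem2 (0.26 ± 0.08; unadjusted p = 0.00851, adjusted p = 0.132) and Xbp1 (0.12 ± 0.04; unadjusted p = 0.0171, adjusted p = 0.173). Dnajc10, Hyou1 and Sec61a1 were the other 3. Atf6 ran the other way (−0.19 ± 0.06; unadjusted p = 0.00484, adjusted p = 0.11). Edem2's slope was 0.09 without the 3 acinar-rich libraries, 0.17 without wild-type replicate 2 and 0.01 within slide 2. Within slide 1 the count was 7 members, and within slide 2, with 7 libraries in 3 groups, it was 0 (17.3% and 5.25% of all genes passed). Without the library labelled hypoglycaemic KO replicate 2 it was 9 (18.1% of all genes passed), and without the 3 acinar-rich libraries 10 (15.7%).

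The 7 hypoglycaemic KO livers alone gave a positive slope for most members. Their glucose was 9, 16, 12, 33, 14, 26 and 29 mg/dl in replicates 1 to 7. Fitted on these alone, slopes were above 0 for 29 of 35 members, with a median of 0.13 per 10 mg/dl against −0.0029 over all genes. Unadjusted p was under 0.05 for 10 positive slopes (6.78% of all genes) and 2 negative ones (6.6%), and none passed after adjustment (0% of all genes did; smallest adjusted p of a member 0.297). The positive ones were Pdia4 (0.33 ± 0.07, SE), Calr (0.46 ± 0.13), Pdia3 (0.25 ± 0.07), Sec61b (0.17 ± 0.06), Sdf2l1 (0.44 ± 0.15), Dnajc10 (0.19 ± 0.07), Canx (0.15 ± 0.06), Ppib (0.20 ± 0.08), Creld2 (0.42 ± 0.17) and Dnajb11 (0.31 ± 0.13). The negative ones were Atf6 (−0.27 ± 0.07) and Herpud1 (−0.29 ± 0.09). All 7 isomerases and oxidases and both lectins had positive slopes. Of the degradation genes 6 of 9 did, and 0 of these passed. The 1 degradation gene that passed was Herpud1, with its negative slope.

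The 2 pups of highest glucose, replicates 4 and 7, were looked at after the slopes were seen. In 16 of 35 members (45.7%) both were above all 5 other hypoglycaemic KO livers, against 7.17% of all genes, and in 0 members both were below. Mean levels of these 2 and of the other 5 were 5.93 and 4.90 for Calr, 4.84 and 4.01 for Creld2, 1.80 and 0.89 for Sdf2l1, 4.00 and 3.12 for Manf, and 7.37 and 6.79 for Hspa5. For Herpud1 they were 5.71 and 6.12. With all 7 livers 12 members had passed the unadjusted threshold, as had 13.4% of all genes. Leaving out replicate 4 left 4 members (median slope 0.13; 7.29% of all genes), and leaving out replicate 7 left 6 (0.11; 15.1%). Leaving out replicate 3 left 7 (0.15; 12.2%) and replicate 5 left 8 (0.14; 11.4%), and slide as a block gave 8 (12.6%). These replicates lay on both slides, replicate 4 on slide 1 and replicate 7 on slide 2. Acinar markers had their lowest mean levels of all 15 libraries in these (−3.22 and −3.20).

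**Figure D5:**
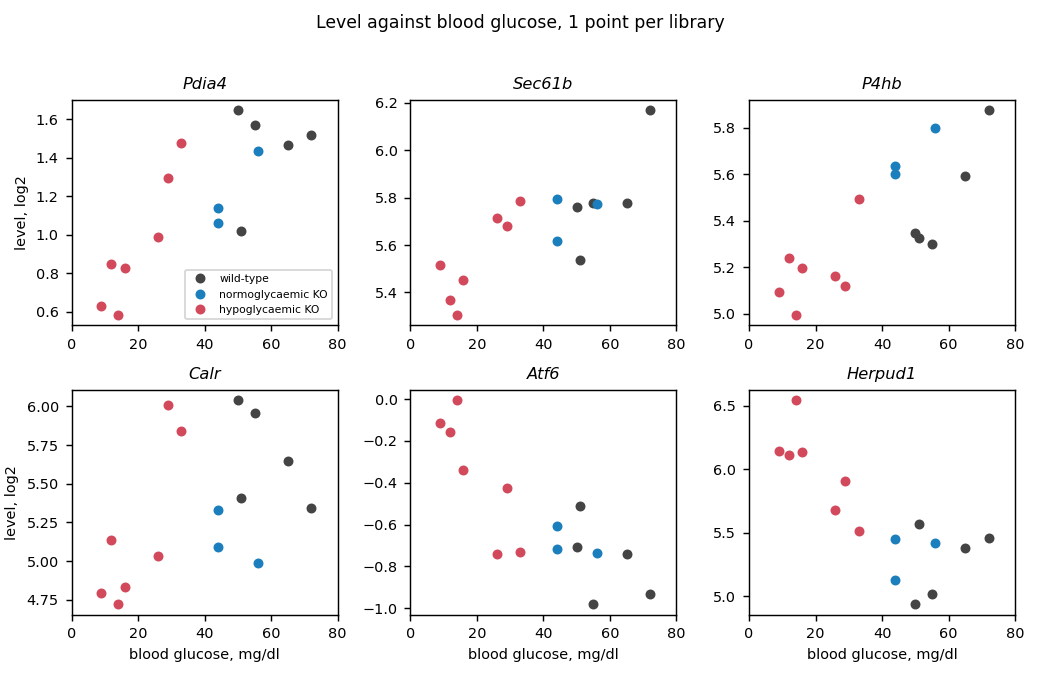
Level of 6 members (y axis, log2 over the array's 75th percentile) against the pup's blood glucose (x axis, mg/dl), 1 point per library, for wild-type (grey), normoglycaemic KO (blue) and hypoglycaemic KO (red) livers. Within the red points Pdia4, Sec61b and Calr are higher at higher glucose and Atf6 and Herpud1 lower; P4hb is lowest in the red group and highest in wild-type replicate 2 (72 mg/dl).

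Members with and without a promoter element were then set side by side. Of the 12 with ERSE or ERSE-II, 10 were below wild type in hypoglycaemic KO livers (median −0.14) and 11 in normoglycaemic KO livers (median −0.27). Of the 17 whose promoter held neither, 13 were below wild type in each comparison (medians −0.27 and −0.10). At the unadjusted threshold 2 of the 12 and 8 of the 17 were lower in hypoglycaemic KO livers (8.91% of all genes were), and the difference between the sets was not tested. Only exact letters within the promoter stretch were searched, so altered or more distant elements could be missed among the 17.

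Genes around the set were taken from 4 fixed lists. In the PERK and ATF4 branch (12 measured), which responds to amino acid shortage as well as to ER stress, 4 were above and 1 below wild type in hypoglycaemic KO livers at an unadjusted p under 0.05, with a median of 0.30, against 9.92% of all genes higher and 8.91% lower, and none passed after adjustment. The same shares stand behind the counts of hypoglycaemic KO against wild type in the lists and markers that follow. Between the KO groups 9.35% of all genes were higher and 10.1% lower at that threshold. Slopes within groups were positive for 8.42% of all genes and negative for 9.67%. Chac1, a glutathione-degrading enzyme under ATF4, read −2.40 ± 0.29 (SD, n = 5) in wild-type and −0.85 ± 0.79 (SD, n = 7) in hypoglycaemic KO livers, 1.56 ± 0.32 (SE) higher (unadjusted p = 0.00028, adjusted p = 0.087). Trib3, a pseudokinase induced by ATF4, was 1.47 ± 0.34 (SE) higher (unadjusted p = 0.000705, adjusted p = 0.0872). Both lay higher in all hypoglycaemic KO than in all wild-type livers (0.759% of all genes did), by small margins. In both the lowest hypoglycaemic KO value was that of the library labelled replicate 2. It was −1.95 against at most −1.99 in wild type for Chac1, and 2.42 against at most 2.32 for Trib3. Sesn2 (0.54 ± 0.15, SE; adjusted p = 0.107), an inhibitor of mTORC1, and Asns (0.33 ± 0.13; adjusted p = 0.178), asparagine synthetase, were higher and Nfe2l2 (−0.35 ± 0.15; adjusted p = 0.245) lower. Between the KO groups 4 were again higher, Trib3, Sesn2, Chac1 and Herpud2, and 1 lower, while in normoglycaemic KO livers 0 of 12 differed from wild type at that threshold. With glucose within groups 2 had negative slopes, Herpud2 (−0.20 ± 0.04 per 10 mg/dl, SE) and Trib3 (−0.46 ± 0.14).

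Further ER folding and quality control genes (38 measured) split in hypoglycaemic KO livers, 7 being below and 4 above wild type at that threshold, with a median of −0.02. The lower ones included the thioredoxin-like Erp44 (−0.27 ± 0.10, SE), the proline isomerase Fkbp2 (−0.29 ± 0.11), Pdia5 (−0.38 ± 0.15) and Erp29 (−0.19 ± 0.08). The higher ones were Mbtps2, the protease that completes ATF6 cleavage (0.59 ± 0.16), and the degradation factors Ube2j1 (0.21 ± 0.07), Faf2 (0.23 ± 0.08) and Nploc4 (0.25 ± 0.11). In normoglycaemic KO livers 3 were lower at the threshold (1.66% of all genes were): Erlec1 (−0.39 ± 0.12), Pdia5 (−0.55 ± 0.18) and the folding sensor Uggt1 (−0.24 ± 0.11). For 6 of the 38 genes, these 3 among them, all 3 livers lay below all wild-type livers (1.5% of all genes). For 0 of the 38 all lay above (2.41%). Between the KO groups 3 were lower in hypoglycaemic livers, led by Txndc5 (−0.58 ± 0.15), and 8 higher, led by Faf2 (0.34 ± 0.10) and Erlec1 (0.37 ± 0.11), against 10.1% and 9.35% of all genes. With glucose within groups 6 had positive slopes, led by the peroxiredoxin Prdx4 (0.21 ± 0.05 per 10 mg/dl), and 5 negative ones, led by Edem3 (−0.18 ± 0.05), against 8.42% and 9.67% of all genes.

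Genes of translocation, glycosylation and ER export (31 measured) were below wild type in 26 cases in hypoglycaemic KO livers (median −0.10), with 3 lower and 0 higher at the unadjusted threshold: the cargo receptor Lman1 (−0.37 ± 0.11, SE), the oligosaccharyltransferase subunit Ostc (−0.57 ± 0.19) and the signal peptidase subunit Spcs3 (−0.23 ± 0.09). In normoglycaemic KO livers 20 of the 31 differences from wild type were above 0 (median 0.03). At the unadjusted threshold 2 were lower there and 0 higher (1.66% and 3.15% of all genes were). In hypoglycaemic against normoglycaemic KO livers 7 were lower and 0 higher (10.1% and 9.35% of all genes were). With glucose within groups 9 had positive slopes (8.42% of all genes did) and 1 a negative one (9.67%). The positive ones were led by the coat protein Sec23b (0.20 ± 0.04 per 10 mg/dl, SE; adjusted p = 0.0566), Ostc (0.31 ± 0.06; adjusted p = 0.057), the translocon-associated Ssr1 (0.19 ± 0.04; adjusted p = 0.0597) and Ddost (0.14 ± 0.04; adjusted p = 0.0989). Of the 14 measured cytosolic and mitochondrial heat shock genes 1 was higher in hypoglycaemic KO than in wild-type livers, the small heat shock protein gene Hspb1 (0.55 ± 0.22, SE; adjusted p = 0.192), with a median of 0.05. In normoglycaemic KO livers 0 of the 14 passed the unadjusted threshold. Between the KO groups Hspb1 (0.71 ± 0.26, SE), Hspa8 (0.21 ± 0.08) and Hsp90ab1 (0.15 ± 0.07) were higher and Dnaja1 (−0.38 ± 0.16) and Dnajb1 (−0.33 ± 0.15) lower in hypoglycaemic livers. Hsp90aa1, Dnajb1, Trap1 and Dnaja1 had positive slopes on glucose within groups (0.11 to 0.20 per 10 mg/dl).

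Markers of other cells were read beside these results. Of 13 granulocyte markers 5 were higher in hypoglycaemic KO than in wild-type livers (median 0.25; mean level 4.62 to 4.92 against 4.41 to 4.71), and of 10 endothelial markers 3 were (median 0.14). Erythroid, B and plasma cell, bile duct, stellate cell and macrophage markers had medians of −0.13 to 0.05, and acinar markers −0.01. At the unadjusted threshold 2 of 11 macrophage, 1 of 10 stellate cell and 1 of 10 erythroid markers were lower, 1 of 7 bile duct markers was lower and 1 higher, and 0 of 10 B and plasma cell markers passed. Of the 10 hepatocyte markers Ttr was lower (−0.62 ± 0.23, SE) and Hnf4a higher (0.41 ± 0.14). In normoglycaemic KO livers the acinar median was 1.22, through replicate 2. The part of these cells in the differences of the members was not tested.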

How the data were processed

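Fluorescence intensity was extracted by the authors with Agilent Feature Extraction 10.10, per the submitters' processing notes, with background subtracted within the array and no scaling between arrays, per the file headers. The deposited log2 values of the series matrix (limma, per the submitters' processing notes) served as an alternative. Probe positions are of mm9, per the file headers. Control spots were left out, spots flagged as outliers (176 to 546 an array) counted as missing, and repeated spots were averaged. Each log2 processed signal was set against the 75th percentile of its array. Probes had to be well above background on 3 of the 15 arrays (41153 of 55681 were), and the one with the highest mean stood for each of 27554 genes. Limma 3.58.1 in R 4.3.3 fitted 3 group means (12 residual degrees of freedom), and a second fit added a slope on glucose. Benjamini-Hochberg adjustment ran over all genes. The fits were checked on simulated data. The number of arrays limits the precision. Replicates are separate pups. The labels do not say that shared replicate numbers pair pups. Deviations of same-numbered pups correlated over 0.1 in all 3 pairs of wild type and normoglycaemic KO, where the fit with the number as a block is given beside the result, and not in all pairs of the other comparisons (6 of 11 in all, from −0.17 to 0.32). The pups of those 3 pairs also shared an array slide, so number and slide cannot be told apart there. Members and lists were chosen with earlier results of these data known. Per-library values were given for 13 members whatever their result. They were also given for up to 5 members per direction and comparison with the smallest unadjusted p under 0.05. For many of these members the hypoglycaemic KO livers were given as lowest, median and highest level only. Per-library values of Calr, and mean values of Manf, Creld2 and Sdf2l1, were added after their values were seen. Of each further list up to 4 genes per direction were named by the smallest unadjusted p under 0.05. Alternatives for the slope in hypoglycaemic KO livers alone were added after the data were seen.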

Additional observations from a re-analysis of the deposited data

Results flagged for a closer look

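A single library stood far from the others of its group in 4 of the 70 member and group combinations examined with a Dixon test in the 2 groups large enough, and chance flags about 1 in 20 groups. Hspa5 read 6.68 in wild-type replicate 2 against 7.09 to 7.22 in the other 4 wild-type livers. Hsp90b1 read 5.85 in the same library against 6.45 to 6.69. Pdia4 read 1.02 in wild-type replicate 1 against 1.47 to 1.65. Edem2 read −2.03 in hypoglycaemic KO replicate 3 against −1.65 to −1.36. Wild-type replicate 2 and hypoglycaemic KO replicate 3 are among the 3 libraries rich in acinar transcripts, and the part of those transcripts was not tested.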

How the results depend on the processing

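No difference or slope of a member that passed the unadjusted threshold changed sign under any alternative run. Against the 13 members past the unadjusted p in hypoglycaemic KO against wild type, 4 passed within slide 1, 8 within slide 2 and 8 without the 3 libraries richest in acinar transcripts, where 5.36%, 12.1% and 12.0% of all genes passed against 18.8%; leaving out 1 library gave 8 to 17 (8 without wild-type replicate 4 or hypoglycaemic KO replicate 1 or 5). Against the 3 in normoglycaemic KO against wild type, 0 passed within slide 1 and 8 when only these groups were fitted (2.98% and 5.88% of all genes against 4.82%); leaving out 1 library gave 1 to 8. Against the 5 between the KO groups, leaving out 1 library gave 5 to 9, with 9 without the library labelled hypoglycaemic KO replicate 2. Against the 9 slopes within groups 0 passed within slide 2 (5.25% of all genes against 18.1%), and leaving out 1 library gave 7 to 10. Of the 12 slopes in hypoglycaemic KO livers alone, leaving out 1 library left 4 to 9.

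With the replicate number as a block, 18 members passed in hypoglycaemic KO against wild type, 6 in normoglycaemic KO against wild type, 9 between the KO groups and 4 for the slope (22.0%, 6.59%, 22.4% and 12.8% of all genes). The numbers meet the check for pairing in the second of these only, where same-numbered livers of the groups compared also shared a slide. An adjusted p under 0.05 arose in some alternatives only: for Herpud1 against wild type without wild-type replicate 1 (0.0422) or hypoglycaemic KO replicate 4 (0.0352); between the KO groups for Sel1l with normexp correction (0.0446), with probes well above background on all arrays (0.0384), and without wild-type replicate 2 (0.0418) or hypoglycaemic KO replicate 4 (0.0225), for P4hb without the same libraries (0.0475 and 0.0357) and for Herpud1 without hypoglycaemic KO replicate 4 (0.044); and for slopes of Sec61b with probes well above background on all arrays (0.0466) and of P4hb without hypoglycaemic KO replicate 7 (0.0379). The cause was not tested. The number of arrays, 3 in the smallest group, limits what could pass.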
